A study of Mus musculus with 37 samples.

Results

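Collagens and interstitial matrix genes were followed in lung RNA of 37 C57BL/6 mice, 1 library per mouse. The genes were taken by symbol from a fixed list of 43, and all 43 were among the 24421 symbols of the count table. They fall into 12 fibrillar and associated collagens (Col1a1, Col1a2, Col3a1, Col5a1, Col5a2, Col6a1, Col6a2, Col6a3, Col12a1, Col13a1, Col14a1 and Col15a1) and 10 genes of the elastic fibre (Eln, Fbn1, Fbln1, Fbln2, Fbln5, Mfap2, Mfap4, Mfap5, Efemp1 and Efemp2). The other classes are 6 proteoglycans (Bgn, Dcn, Lum, Ogn, Podn and Vcan), 5 adhesive and matricellular genes (Fn1, Postn, Sparc, Tnc and Tnxb), 8 cross-linking and remodelling genes (Lox, Loxl1, Loxl2, Timp1, Timp2, Timp3, Mmp2 and Mmp14) and the PDGF receptors Pdgfra and Pdgfrb, which mark mesenchymal cells. The list was made by gene name, with earlier results of these data known. All 43 passed the filter on low counts that left 16977 genes to test.

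The groups were mock-irradiated mice (mock, n = 7), mock-irradiated mice given nicotinamide riboside (NR, a precursor of NAD) at 12 mM in the drinking water from before the exposure (mock + NR, n = 5), mice given 0.75 Gy of silicon ions at 300 MeV per nucleon (silicon, n = 7), the same with NR (silicon + NR, n = 6), mice given 0.75 Gy of a simplified simulation of galactic cosmic rays made of 5 ions (GCR, n = 7) and mice given 0.75 Gy of gamma rays from caesium-137 (gamma, n = 5). By label 22 mice were male and 15 female, and every group held both sexes. Neither age nor time since exposure was used here. Library totals ran from 9485197 to 66381526 counts with a median of 28476462.

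The interstitial matrix is built mainly by fibroblasts. Fibrillar collagens give the lung its tensile strength, elastin on a scaffold of fibrillin and fibulins lets it recoil with each breath, and small leucine-rich proteoglycans such as decorin and lumican bind collagen fibrils and set their spacing. Lysyl oxidases cross-link collagen and elastin, metalloproteinases cleave matrix, and TIMPs inhibit them. Fibrosis of the lung is a known late effect of high radiation doses to the chest.

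Some libraries held RNA of tissue other than lung parenchyma, and these libraries were not spread evenly over the groups. Acta1, the skeletal muscle actin, exceeded 1000 CPM (counts per 1000000 counts of the library) in 13 libraries: 4 of mock, 2 of mock + NR, 5 of silicon, 2 of silicon + NR and none of GCR or gamma. Nppa, an atrial heart gene, exceeded 10000 CPM in gamma 3 and gamma 4. Ccl19, a chemokine of lymphoid stroma, exceeded 100 CPM in 1 mock + NR and 2 silicon libraries. Rn45s, the precursor of ribosomal RNA, exceeded 100000 CPM in GCR 2, GCR 5, GCR 6 and mock 4. These are called muscle-rich, heart-rich, lymphoid-rich and high-Rn45s libraries here, by limits set with the data known, and results are given with and without them where they matter. Gamma 5, labelled female, held 3.73 CPM of Xist and a sum of 200.1 CPM over 4 Y-linked genes, and was the 1 library of 37 that went against its sex label. Numbers after a group name are only names of mice. GCR libraries carry mouse names of a different form from the rest in the labels. Whether these mice were a separate cohort is not stated, and if they were, cohort and GCR exposure cannot be told apart in any comparison with GCR.

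In mock lungs the 43 genes spanned a wide range of levels per length of exon, as shown in the plot of levels in the mock lungs. Sparc, a collagen-binding glycoprotein, stood first at 312 ± 123 CPM per kb (mean ± SD, n = 7), followed by the microfibril gene Mfap4 at 143 ± 109 and the proteoglycan gene Ogn at 112 ± 36.5 CPM per kb. These neighbours overlapped within their spread. Timp2, Timp3 and Dcn lay close together at 101 ± 35.5, 88.9 ± 28.3 and 88.1 ± 35.1 CPM per kb. The highest fibrillar collagen per length was Col3a1 at 26.2 ± 5.42 CPM per kb, ahead of Col1a2 at 15.3 ± 2.65 and Col1a1 at 8.95 ± 1.24. Eln reached 15.1 ± 6.51 and Fn1 8.18 ± 1.90 CPM per kb. Vcan, the large proteoglycan versican, was lowest at 0.805 ± 0.125 CPM per kb. All 43 genes together made up 0.186% to 0.789% of a library's counts, lowest in GCR 2 and highest in mock 7.

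**Figure D1:**
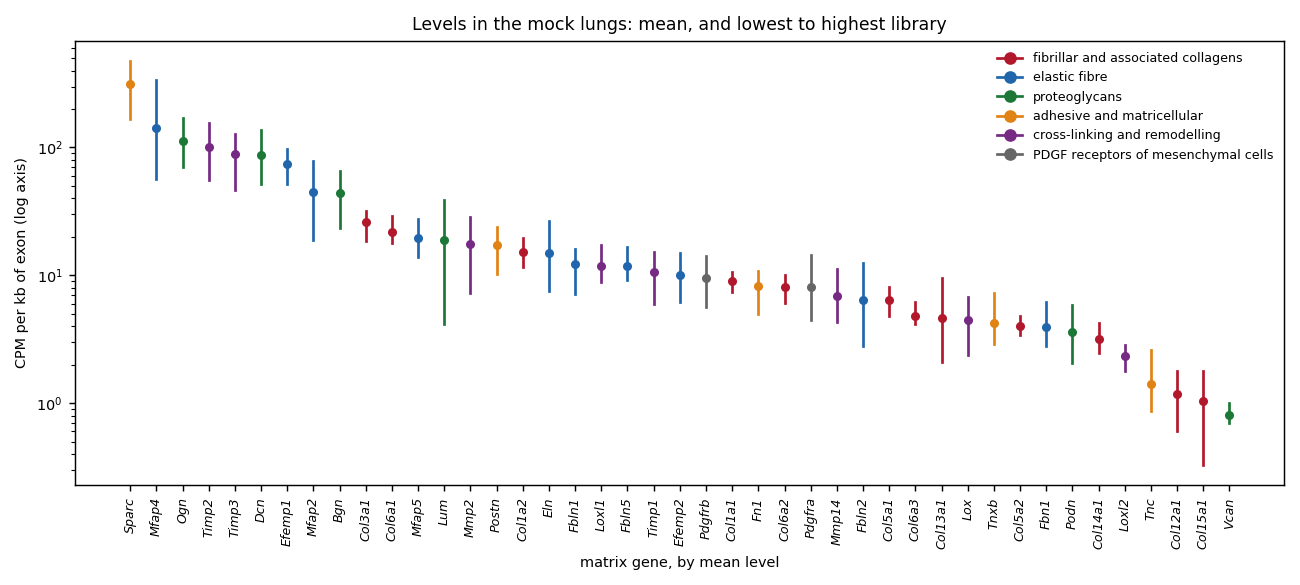
CPM per kb of exon (log axis) of each of the 43 genes in the 7 mock libraries, ordered by mean. Points are means, bars run from the lowest to the highest library and colours mark the class; Sparc is highest at 312 and Vcan lowest at 0.805 CPM per kb.

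The genes differed most between mice in a few members. Lum ranged from 0.489 CPM in GCR 1, where it had 13 counts, to 172 CPM in silicon 7. Podn ranged 35.1-fold and Col13a1 26.4-fold over the 37 libraries. Col6a3 (2.73-fold) and Mmp14 (2.88-fold) varied least. The members' median biological coefficient of variation in edgeR was 0.362, beside 0.332 over all genes tested.

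Among the 7 mock libraries, Lum was 21.4 to 95.9 CPM in the 4 muscle-rich ones and 10.2 to 16.8 CPM in the other 3. Dcn was 347 to 796 CPM in the muscle-rich mock libraries and 301 to 492 CPM in the others, so these overlapped. In silicon, Lum was 88.0 to 172 CPM in 5 muscle-rich libraries and 22.1 to 24.01 CPM in the other 2. Mfap2 ran the other way in mock, at 22.8 to 49.1 CPM in the muscle-rich libraries and 59.0 to 94.99 CPM in the others. Col1a1 did not separate them, with 48.7 to 65.3 CPM against 49.7 to 69.3 CPM. The part of muscle-associated tissue in the group differences was not tested, and in bulk RNA fewer cells of a type and less RNA per cell cannot be told apart.

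**Figure D2:**
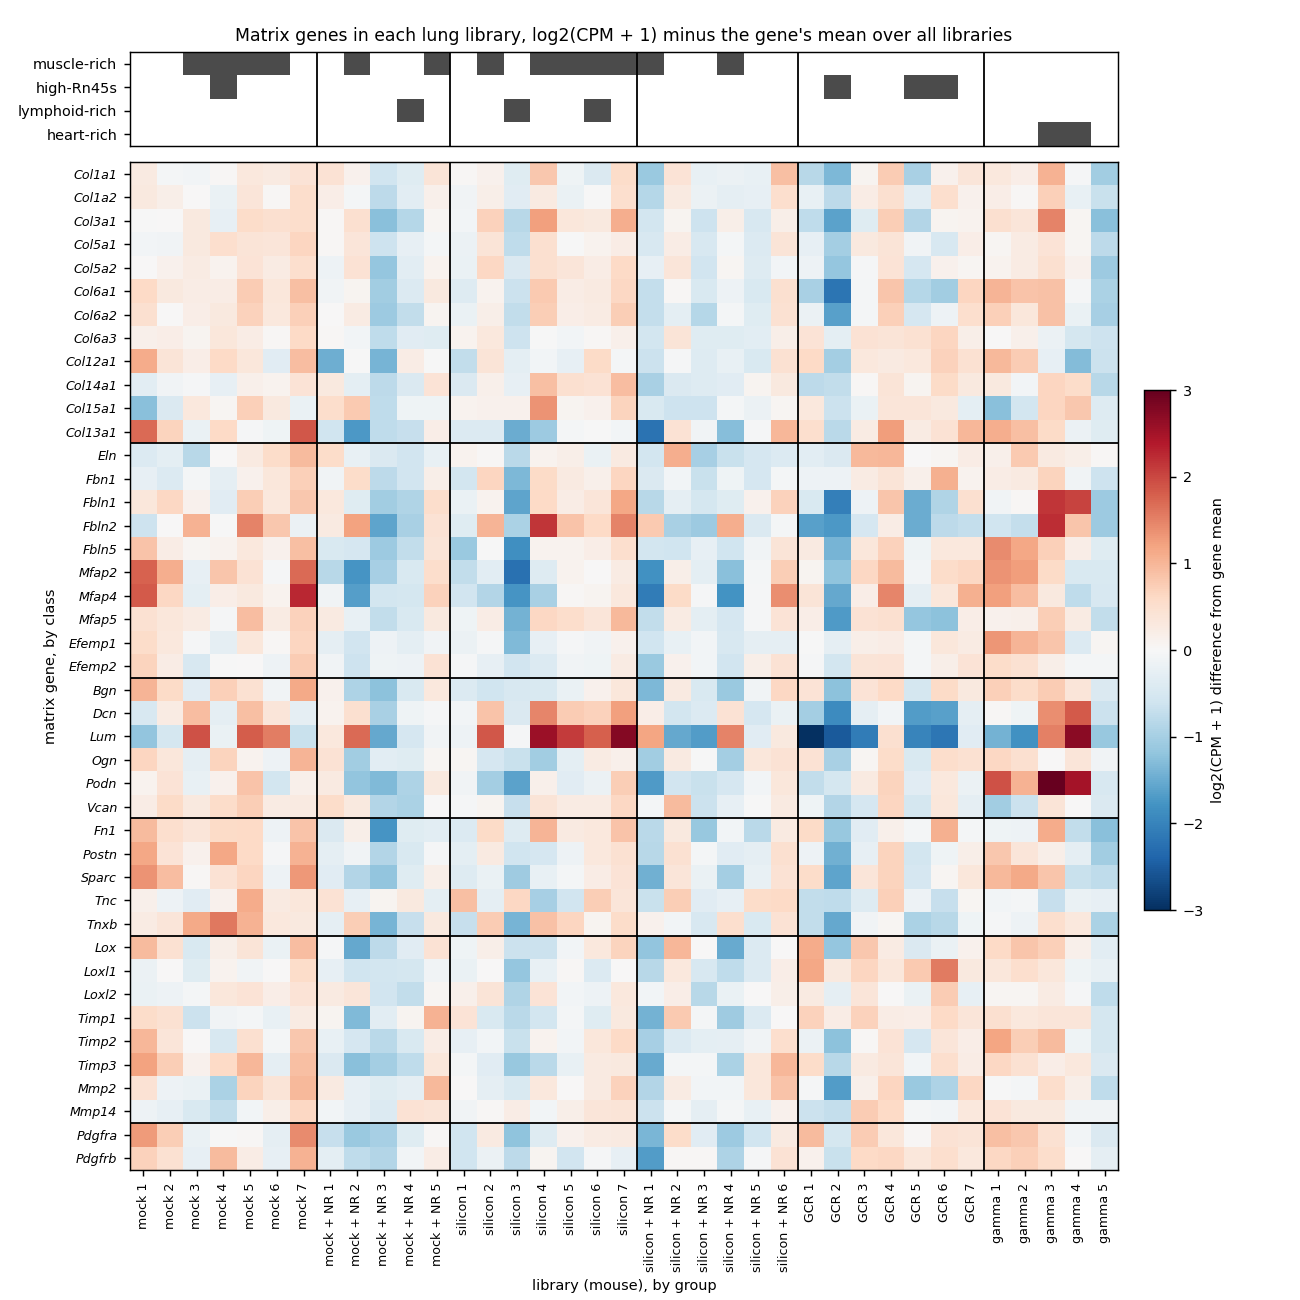
Each of the 43 genes (rows, by class) in each of the 37 libraries (columns, by group), as log2(CPM + 1) minus the gene's mean over all libraries, with dark cells above marking the 4 kinds of library. Lum ranges from 0.489 CPM in GCR 1 to 172 CPM in silicon 7. It is high in most muscle-rich libraries, but not in mock 4 (21.4 CPM) or mock + NR 5 (22.8 CPM).

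No matrix gene passed the test after silicon ions. Col1a1 was 48.7, 62.4 and 69.3 CPM (lowest, median, highest) in mock and 38.3, 53.5 and 91.1 CPM in silicon, a log2 fold change of -0.06 (SE 0.27, adjusted p = 0.956). Col3a1 was 182, 263 and 313 CPM in mock and 119.5, 274 and 504 CPM in silicon, a log2 fold change of 0.25 (SE 0.32, adjusted p = 0.809). The silicon values surrounded the mock values for both collagens. Eln, elastin, was 62.9, 119 and 132 CPM in silicon (-0.12, SE 0.27, adjusted p = 0.895). Fn1, the adhesive glycoprotein fibronectin, was 58.0, 96.3 and 126 CPM in mock and 47.8, 80.6 and 131 CPM in silicon (-0.12, SE 0.35, adjusted p = 0.923). Eln and Fn1 overlapped between the groups. Lox, the founding lysyl oxidase, was 11.5, 21.2 and 32.2 CPM in mock and 9.93, 15.001 and 26.1 CPM in silicon (-0.33, SE 0.35, adjusted p = 0.757). Dcn differed by 0.45 (SE 0.37, adjusted p = 0.683), Timp1 by -0.22 (SE 0.31, adjusted p = 0.83) and Pdgfra by -0.64 (SE 0.29, adjusted p = 0.336). The 95% interval for Col1a1, -0.58 to 0.47, leaves room for a change of that size in either direction.

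The genes of smallest p after silicon ions had estimates below 0. Mfap2, a microfibril glycoprotein, was 22.8, 49.1 and 94.99 CPM in mock and 4.96, 21.5 and 32.3 CPM in silicon, a log2 fold change of -1.45 (SE 0.39, adjusted p = 0.09). Col13a1, a transmembrane collagen, was 9.68, 17.6 and 43.8 CPM in mock and 3.38, 8.28 and 11.3 CPM in silicon, a log2 fold change of -1.46 (SE 0.40, adjusted p = 0.09). Both groups overlapped for both genes. Mfap4 (-1.55, SE 0.43), Timp3 (-0.98, SE 0.28) and Pdgfrb (-0.86, SE 0.25) had adjusted p from 0.1 to 0.107.

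Of the 43 genes 0 were called by edgeR's quasi-likelihood test, as were 0% of all genes tested. At an unadjusted p under 0.05 there were 12 (27.9%), all 12 lower in silicon, against 12.9% of all genes in either direction. DESeq2 called 5 of the 43 (Col13a1, Mfap2, Mfap4, Pdgfrb and Timp3) and 2.49% of all genes, and voom called 0 and 0.00589%. The median log2 fold change was -0.26 over the 43 and 0.07 over all genes tested. Without the muscle-rich libraries, which leaves 3 mock mice and silicon 1 and silicon 3, edgeR called 7 of the 43, all lower (Col13a1, Fbln5, Mfap2, Mfap4, Pdgfra, Pdgfrb and Sparc), beside 4.23% of all genes. Silicon 3 is lymphoid-rich (Ccl19 at 447 CPM) and had the lowest Mfap2 (4.96 CPM) and Fbln5 (16.4 CPM) of all 37 libraries. The alveolar fibroblast list, which holds Mfap4 among its 6 genes, summed to 1065 to 4247 CPM in mock and 349 to 1363 CPM in silicon. Endothelial markers, 4 genes, summed to 415 to 1764 CPM in mock and 155 to 582 CPM in silicon, and alveolar type 1 markers, 4 genes, to 1039 to 4152 and 508 to 2033 CPM. The part of these lists in the result was not tested.

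**Figure D3:**
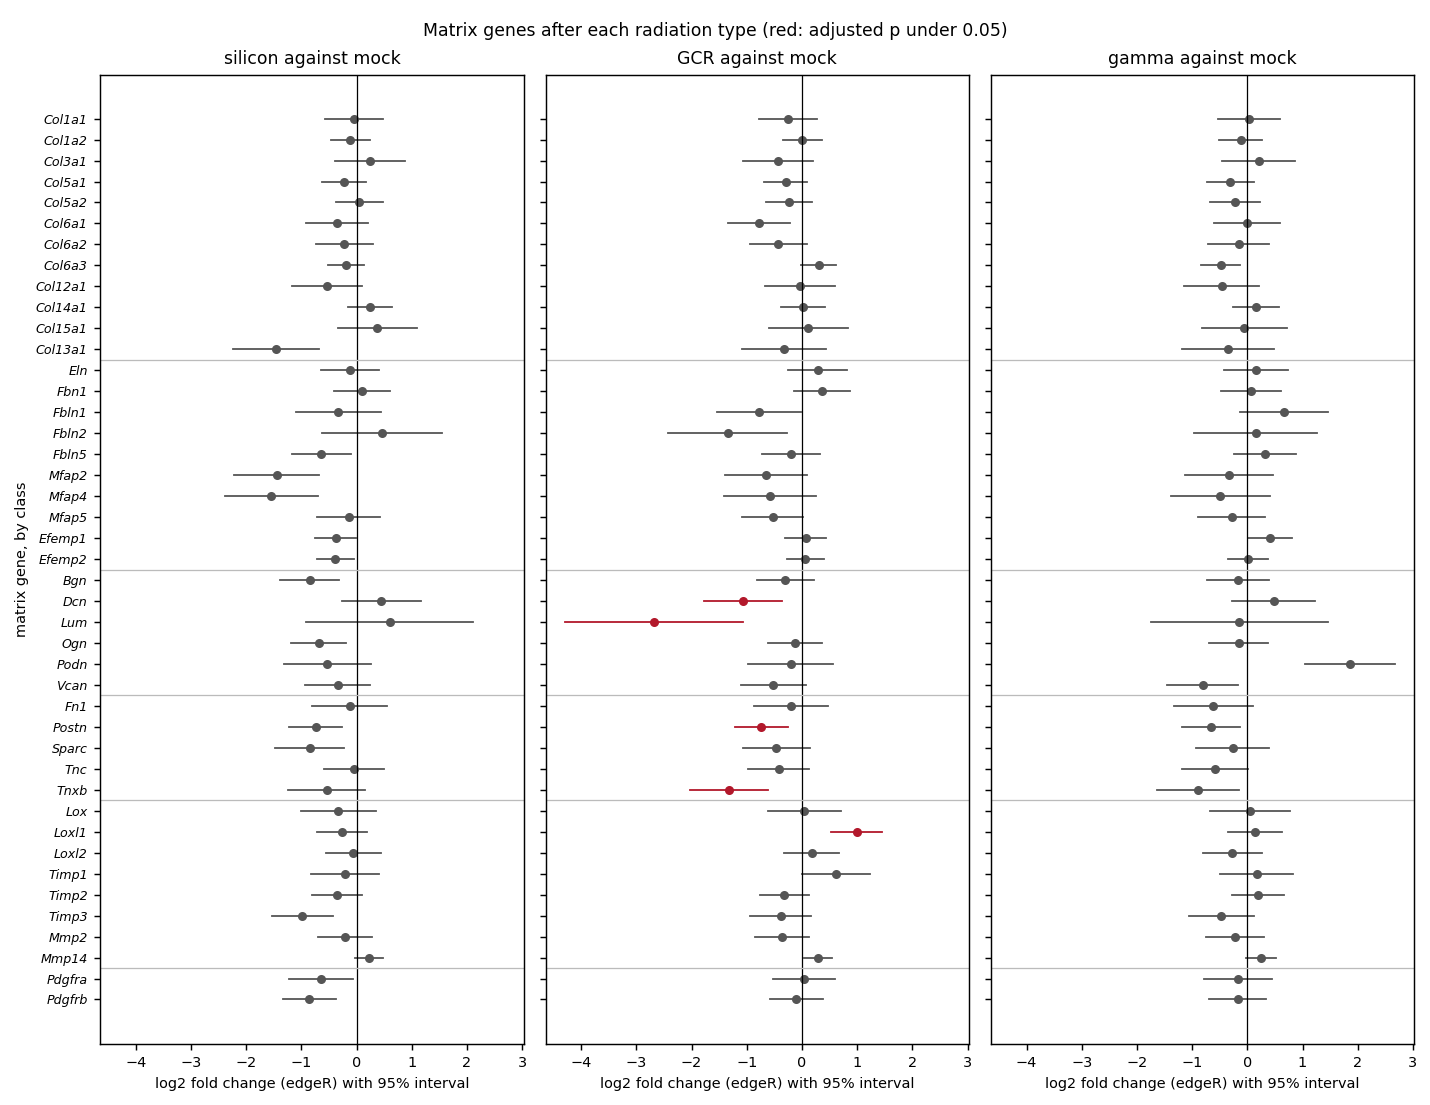
Log2 fold change (edgeR) of each of the 43 genes in silicon, GCR and gamma against mock, with 95% intervals and red for an adjusted p under 0.05. In red are Loxl1, at 0.99, and Dcn, Lum, Postn and Tnxb, below 0, all in GCR; the 3 panels share the 7 mock libraries.

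After the GCR simulation 5 of 43 matrix genes were called against mock, beside 16.6% of all genes tested. Loxl1 was higher, and Tnxb, Lum, Postn and Dcn were lower. No gene of the whole table was called without the high-Rn45s libraries, nor without the muscle-rich ones. The first fit kept 4 GCR and 6 mock mice, and the second 7 GCR and 3 mock mice. Whether the smaller groups or the kind of library cost the calls was not tested. Loxl1, a lysyl oxidase needed for elastic fibre renewal (chromosome 9, 58287738 to 58313186, minus strand, GRCm38), was 29.2, 38.0 and 56.5 CPM in mock and 46.8, 59.5 and 114 CPM in GCR. The log2 fold change was 0.99 (SE 0.23, adjusted p = 0.00973). Mock 7 alone overlapped the GCR range. Tnxb, a tenascin that organises collagen, was 35.1, 37.8 and 89.5 CPM in mock and 9.46, 17.3 and 30.8 CPM in GCR, a log2 fold change of -1.32 (SE 0.36, adjusted p = 0.0171). Every mock library was above every GCR library for Tnxb.

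Lum, the collagen-binding proteoglycan lumican (chromosome 10, 97565128 to 97572703, plus strand), was 10.2, 21.4 and 95.9 CPM in mock and 0.489, 5.02 and 34.7 CPM in GCR. The log2 fold change was -2.68 (SE 0.82, adjusted p = 0.0282), and the groups overlapped. Its neighbour Dcn, decorin, was 301, 492 and 796 CPM in mock and 111, 204 and 396 CPM in GCR. The log2 fold change of Dcn was -1.06 (SE 0.36, adjusted p = 0.0413). Postn, a matricellular protein that binds collagen, was 89.8, 139 and 209 CPM in mock and 33.5, 83.1 and 147 CPM in GCR, a log2 fold change of -0.74 (SE 0.25, adjusted p = 0.0408). Dcn and Postn overlapped between groups.

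The collagens and elastin were not called after GCR. Col1a1 was 19.7, 55.4 and 89.2 CPM in GCR (log2 fold change -0.26, SE 0.27, adjusted p = 0.523). Col3a1 was 69.4, 168 and 359 CPM in GCR (-0.44, SE 0.32, adjusted p = 0.338). Eln was 61.2, 112 and 215 CPM in mock and 81.0, 115 and 221 CPM in GCR (0.28, SE 0.27, adjusted p = 0.476). Collagens had 0 of 12 called, elastic fibre genes 0 of 10, proteoglycans 2 of 6, adhesive and matricellular genes 2 of 5 and cross-linking genes 1 of 8. These counts stand beside 16.6% of all genes tested, and differences between the classes were not tested. Fn1 was 28.7, 62.0 and 136 CPM in GCR (-0.20, SE 0.34, adjusted p = 0.72) and Lox 6.6, 17.8 and 35.8 CPM (0.04, SE 0.34, adjusted p = 0.946). Timp1 was 5.31, 8.49 and 13.5 CPM in mock and 10.4, 11.8 and 15.05 CPM in GCR (0.61, SE 0.31, adjusted p = 0.158). Pdgfra was 36.7, 70.5 and 104 CPM in GCR (0.04, SE 0.29, adjusted p = 0.945).

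Called in all were 5 of 43 (11.6%), beside 16.6% of all genes tested. By direction 1 was higher, against 8.03% of all genes, and 4 were lower, against 8.52%. The median log2 fold change was -0.26 over the 43 and -0.06 over all genes. Without the 4 high-Rn45s libraries 0 of the 43 and 0% of all genes were called. The log2 fold changes were then 0.81 for Loxl1 (adjusted p = 0.252), -2.40 for Lum, -0.83 for Tnxb, -0.76 for Dcn and -0.39 for Postn. Without the 13 muscle-rich libraries 0 of the 43 and 0% of all genes were called too, with 0.97 for Loxl1, -1.20 for Lum, -0.65 for Tnxb, -0.53 for Dcn and -0.79 for Postn. Leaving out single mice gave 1 to 6 calls, beside 501 to 4087 in the whole table, and Loxl1 was called in each of those 14 fits. Without GCR 2 only Loxl1 was called. Without GCR 1, GCR 5, GCR 6 or mock 5 only Loxl1 and Tnxb were called, and without mock 3 or mock 6 Loxl1, Postn and Tnxb were. Voom called 2, Loxl1 and Mmp14, a membrane-bound metalloproteinase, beside 8.92% of all genes.

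**Figure D4:**
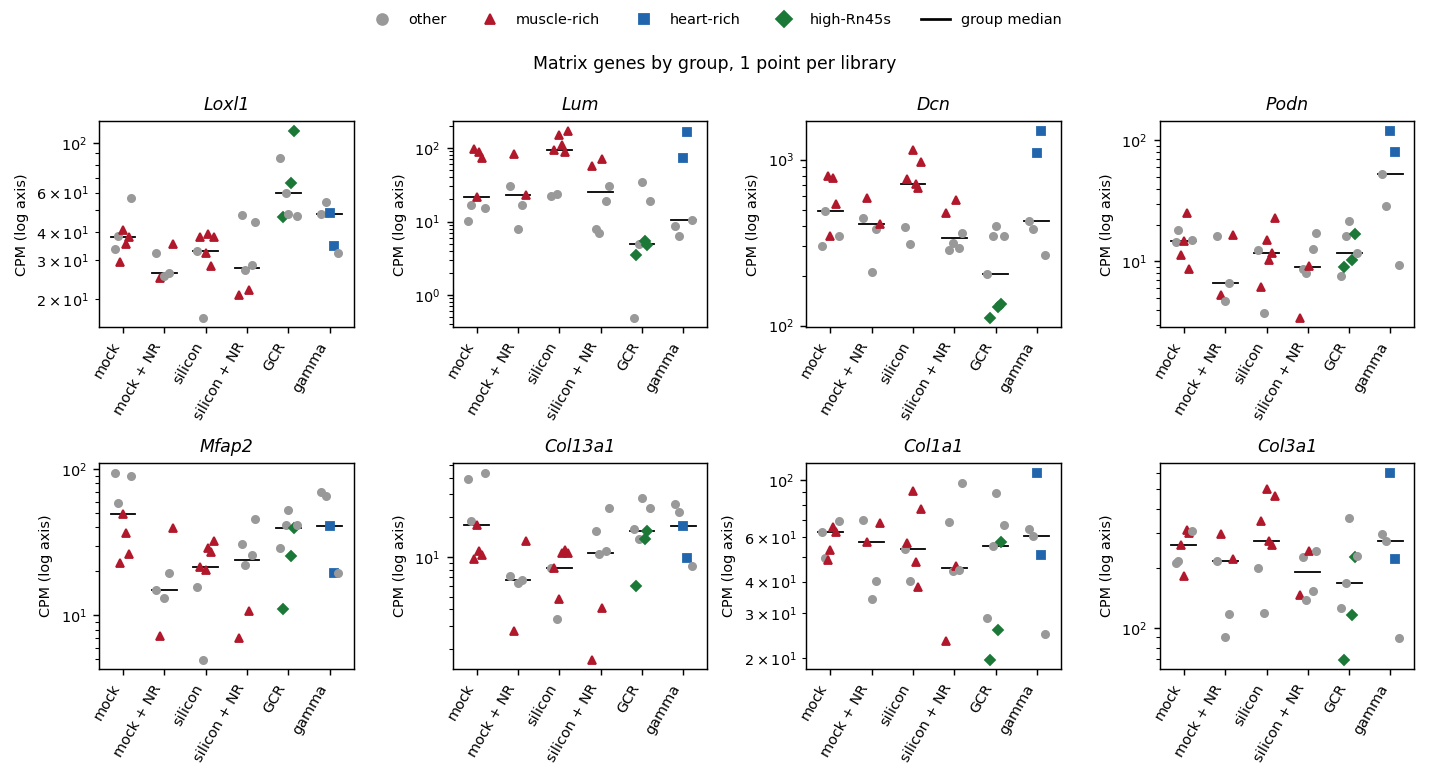
CPM (log axis) of 8 matrix genes in each library, by group, with marks for the kind of library and a bar at the group median; mock 4, both muscle-rich and high-Rn45s, is marked as muscle-rich. Lum and Dcn are highest in muscle-rich and heart-rich libraries, and Loxl1 is higher in the 7 GCR libraries (46.8 to 114 CPM) than in the 7 silicon libraries (16.5 to 39.1 CPM).

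GCR and silicon mice were also compared with each other, in the same fit to all libraries. Of the 43 genes 9 were called (20.9%), beside 35.3% of all genes. Loxl1, Col13a1, Timp1, Pdgfrb, Col6a3 and Efemp2 were higher in GCR, against a background of 14.1% higher, and Lum, Fbln2 and Dcn were lower, against 21.2% lower. Loxl1 was 16.5, 32.99 and 39.1 CPM in silicon, below every GCR library, with a log2 fold change of 1.25 (SE 0.23, adjusted p = 0.00186). Timp1, an inhibitor of metalloproteinases, was 4.65, 6.69 and 12.2 CPM in silicon and 10.4, 11.8 and 15.05 CPM in GCR (0.83, SE 0.31, adjusted p = 0.0362). Pdgfrb, a receptor of pericytes and fibroblasts, was 20.9, 30.9 and 39.3 CPM in silicon and 22.8, 47.5 and 57.7 CPM in GCR (0.76, SE 0.24, adjusted p = 0.0162). Timp1 and Pdgfrb overlapped between the groups. Col6a3 was 31.2, 49.5 and 60.7 CPM in silicon and 39.7, 64.6 and 76.9 CPM in GCR (0.50, SE 0.16, adjusted p = 0.0187). Col13a1 was 6.08, 15.8 and 28.2 CPM in GCR (1.13, SE 0.39, adjusted p = 0.0243), and overlapped its silicon values. Efemp2, a fibulin needed to assemble elastin, was 21.8, 30.3 and 39.7 CPM in silicon and 22.4, 37.7 and 44.4 CPM in GCR (0.44, SE 0.17, adjusted p = 0.0409). These genes overlapped too. In 14 fits that each left out 1 mouse, Efemp2 lost its call in 8, Timp1 in 6, Col13a1 in 2 and Col6a3 in 1. A fit to these 2 groups alone also called 9, with Mfap4 in place of Col6a3, beside 26.5% of all genes.

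Lum was 22.1, 93.0 and 172 CPM in silicon, a log2 fold change of -3.28 in GCR (SE 0.79, adjusted p = 0.00403). Dcn was 310.3, 709 and 1146 CPM in silicon (-1.51, SE 0.36, adjusted p = 0.00371). Fbln2, a fibulin of vessel walls and elastic fibres, was 13.9, 51.1 and 127 CPM in silicon and 7.69, 15.8 and 32.5 CPM in GCR (-1.81, SE 0.54, adjusted p = 0.012). Fbln2 was 27.4 to 127 CPM in the 13 muscle-rich libraries of all groups. In the other 24 it was 7.69 to 33.5 CPM, except in the heart-rich gamma 3 (133 CPM) and gamma 4 (50.1 CPM). Without the muscle-rich libraries Dcn was at -0.48 (adjusted p = 0.558), Fbln2 at -0.14 (adjusted p = 0.917) and Lum at -2.33 (adjusted p = 0.101), while Loxl1 (1.73, adjusted p = 0.026) and Pdgfrb (1.24, adjusted p = 0.0199) were called. Col6a3 (0.85, adjusted p = 0.0852), Col13a1 (1.61, adjusted p = 0.0547), Efemp2 (0.61, adjusted p = 0.0867) and Timp1 (1.02, adjusted p = 0.0827) were not called there, and Fbln5, Fbn1, Mfap2, Pdgfra and Tnc were, which made 7 of 43 beside 7.37% of all genes. Of the silicon mice, that fit kept only silicon 1 and the lymphoid-rich silicon 3. Silicon 3 had the lowest Fbln5, Fbn1, Mfap2 and Loxl1 of all 37 libraries. Without the lymphoid-rich libraries 6 were called, beside 27.4% of all genes. Loxl1, Lum, Dcn and Fbln2 were among them, and Pdgfrb (adjusted p = 0.064), Col6a3, Col13a1, Efemp2 and Timp1 were not. Without the high-Rn45s libraries 0 of the 43 and 0% of all genes were called, Loxl1 being at 0.99 (adjusted p = 0.0814).

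Of the called genes, 5 have a RefSeq promoter entry (GRCm38.p6) whose start is the GENCODE start, and the 120 bases before it are shown because Timp1, Col6a3 and Col13a1 were higher and Tnxb and Fbln1 lower in a GCR comparison. Capitals mark matches, on either strand, to the TATA box TATAAA, the CCAAT box, the SP1-type GC box GGGCGG or the AP-1 site TGACTCA.
Timp1, chrX:20870046-20870165, plus strand: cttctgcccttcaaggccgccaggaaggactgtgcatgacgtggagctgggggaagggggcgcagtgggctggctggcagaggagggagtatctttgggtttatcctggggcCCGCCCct
Col6a3, chr1:90843972-90844091, minus strand: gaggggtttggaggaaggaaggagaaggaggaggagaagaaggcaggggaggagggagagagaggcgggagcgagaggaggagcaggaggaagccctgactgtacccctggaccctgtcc
Col13a1, chr10:61979109-61979228, minus strand: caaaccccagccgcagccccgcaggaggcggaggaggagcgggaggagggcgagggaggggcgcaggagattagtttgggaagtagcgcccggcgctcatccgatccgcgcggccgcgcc
Tnxb, chr17:34670415-34670534, plus strand: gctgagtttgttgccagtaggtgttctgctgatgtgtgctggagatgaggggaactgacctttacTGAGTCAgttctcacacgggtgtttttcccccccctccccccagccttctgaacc
Fbln1, chr15:85205829-85205948, plus strand: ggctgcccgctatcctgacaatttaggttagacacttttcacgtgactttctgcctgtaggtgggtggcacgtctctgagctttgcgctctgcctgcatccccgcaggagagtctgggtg
Timp1 holds GGGCGG, found in 26.5% of 32851 promoter windows of that length, and Tnxb holds TGACTCA, found in 2.3%. TATAAA (6.34%) and CCAAT (21.3%) were in none of the 5 windows.

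No matrix gene passed the test after gamma rays. Podn, the proteoglycan podocan, had the largest estimate. It was 8.73, 14.7 and 24.9 CPM in mock, and 53.0, 28.5, 120.1, 79.7 and 9.31 CPM in gamma 1 to 5. The log2 fold change was 1.86 (SE 0.42, adjusted p = 0.12). All gamma mice but gamma 5 were above the mock range. Col1a1 was 64.6, 60.2, 107, 50.9 and 24.8 CPM in gamma 1 to 5 (0.04, SE 0.29, adjusted p = 0.981). Eln was 122, 191, 133, 125 and 113 CPM (0.16, SE 0.29, adjusted p = 0.9). Col3a1 was 299, 275, 606, 223 and 89.1 CPM (0.20, SE 0.34, adjusted p = 0.89). These 3 genes overlapped mock. Fn1 differed by -0.61 (SE 0.37, adjusted p = 0.615), Dcn by 0.48 (SE 0.38, adjusted p = 0.733), Lox by 0.04 (SE 0.37, adjusted p = 0.983), Timp1 by 0.17 (SE 0.34, adjusted p = 0.905) and Pdgfra by -0.17 (SE 0.32, adjusted p = 0.9).

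Of the 43 genes 0 were called by edgeR, beside 0.0295% of all genes, and 6 (14%) had an unadjusted p under 0.05, beside 10%. DESeq2 called 1, Podn, and 1.46% of all genes. Voom called 3, Efemp1, Podn and Vcan, and 1.4% of all genes. Reads of Podn cannot be told from those of Scp2, which overlaps it, where the genes share bases. Without gamma 5, whose sex label the data go against, edgeR called 1, Podn, with 12 in the whole table. Mesothelial markers, 4 genes, summed to 591, 464, 554, 152 and 149.9 CPM in gamma 1 to 5, to 65.6 to 309 CPM in mock and to 29.1 to 220.1 CPM in GCR, and their part in the Podn values was not tested.

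GCR and gamma differed in 5 of 43 genes (11.6%), beside 5.7% of all genes. Col6a3 and Loxl1 were higher in GCR, against 2.66% higher, and Podn, Dcn and Fbln1 were lower, against 3.04% lower. Col6a3, a chain of the microfibrillar collagen VI, was 39.7, 64.6 and 76.9 CPM in GCR and 49.1, 54.6, 42.9, 33.4 and 31.1 CPM in gamma 1 to 5 (log2 fold change 0.79, SE 0.18, adjusted p = 0.0313). Podn was 7.64, 11.8 and 21.7 CPM in GCR (-2.07, SE 0.42, adjusted p = 0.027). Dcn was 424, 380.0, 1099, 1493 and 266 CPM in gamma 1 to 5 (-1.54, SE 0.38, adjusted p = 0.0327). Fbln1, a fibulin of the elastic fibre, was 36.7, 40.7, 177, 164 and 17.9 CPM (-1.45, SE 0.41, adjusted p = 0.04). Loxl1 differed by 0.86 (SE 0.26, adjusted p = 0.0466). Voom called 4 (Efemp1, Fbln5, Podn and Timp2), beside 1.13% of all genes, and gave 0.28 for Loxl1. A fit to GCR and gamma alone called 0 of the 43 and 0 genes of the whole table. The same held without the high-Rn45s libraries and without the muscle-rich ones.

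Among the gamma mice Dcn, Fbln1 and Podn were highest in gamma 3 and gamma 4, the heart-rich libraries. Without them 0 of the 43 and 0.0232% of all genes were called. Fbln1 was then at -0.03, Dcn at -0.44 and Podn at -1.12, while Col6a3 (0.72) and Loxl1 (0.82) moved little, each with an adjusted p of 0.458. Adipose markers, 4 genes, summed to 3036 CPM in gamma 3 and 44.2 CPM in gamma 4. The cartilage list, 7 genes, summed to 19.6 CPM in gamma 3, 50.1 CPM in gamma 4 and at most 4.64 CPM elsewhere, of which Comp made up 16.2 and 44.2 CPM. Cnmd, also on that list, was highest in gamma 4 at 5.79 CPM. Col2a1, Acan, Col9a1, Matn1 and Matn3 were at most 0.512 CPM in any library. Leaving out GCR 1, GCR 2, GCR 5, GCR 6, gamma 3 or gamma 4 alone also left 0 of the 43 called, with 0 to 5 genes called in the whole table. Leaving out gamma 5 gave 8, with 2149 in the whole table.

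Gamma and silicon differed in 1 of 43 genes (2.33%), beside 0.247% of all genes, 0.188% higher and 0.0589% lower. Podn was 3.73, 11.8 and 22.8 CPM in silicon, and higher in gamma by 2.39 (SE 0.43, adjusted p = 0.017). Podn was not called without the heart-rich libraries (1.44, adjusted p = 0.139, beside 0.029% of all genes), the lymphoid-rich ones (2.13, adjusted p = 0.118, beside 0%) or the muscle-rich ones (2.80, adjusted p = 0.0534, beside 1.69%). The fit without the muscle-rich libraries kept 2 silicon mice. Podn was still higher in gamma in each of these fits. Podn also lost its call without silicon 3, silicon 5, silicon 6, gamma 3 or gamma 4 alone, 5 of 12 such fits. Leaving out gamma 5 gave 3 calls, with 178 in the whole table. Voom called 19 of the 43 in this comparison, beside 30.8% of all genes, and DESeq2 3, beside 6.39%.

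NR alone called no matrix gene either, though nearly all estimates lay below 0. Timp3, a matrix-bound inhibitor of metalloproteinases, was 376, 746 and 1042 CPM in mock and 332, 187, 222, 265 and 566 CPM in mock + NR 1 to 5. The log2 fold change was -1.16 (SE 0.31, adjusted p = 0.102). Postn was 76.7, 85.9, 49.6, 66.3 and 90.01 CPM in mock + NR 1 to 5 (-0.97, SE 0.27, adjusted p = 0.102). Pdgfra, a receptor of alveolar fibroblasts, was 44.6, 54.6 and 146 CPM in mock and 32.6, 24.4, 26.3, 41.8 and 55.2 CPM in mock + NR 1 to 5 (-1.06, SE 0.32, adjusted p = 0.109). The ranges of all 3 genes overlapped.

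Below 0 were 39 of 43 genes, with a median of -0.46, beside -0.01 over all genes. EdgeR called 0 of 43 and 0% of all genes. At an unadjusted p under 0.05 there were 15 (34.9%), all 15 lower, beside 16.9% of all genes in either direction. DESeq2 called 6 (Col13a1, Mfap2, Pdgfra, Postn, Sparc and Timp3) beside 3.8% of all genes, and voom 5 (Fn1, Pdgfra, Postn, Sparc and Timp3) beside 5.85%. Without the muscle-rich libraries, with 3 mice left in each group, edgeR called 6 of 43, all lower, beside 2.48% of all genes. Endothelial markers, 4 genes, summed to 415 to 1764 CPM in mock and 108 to 631 CPM in mock + NR, and alveolar type 1 markers, 4 genes, to 1039 to 4152 and 387 to 2120 CPM; their part in the result was not tested.

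Among mice given NR, silicon ions called 0 of 43 matrix genes by edgeR, 0 by DESeq2 and 0 by voom, beside 0%, 0.0093% and 0% of all genes. None of the 43 had an unadjusted p under 0.05, beside 2.16%. Col1a1 differed by -0.11 (95% interval -0.69 to 0.48) and Pdgfra by 0.25 (95% interval -0.39 to 0.89). NR in silicon-irradiated mice called 0 by edgeR, beside 0% of all genes, with 2 (4.65%) at an unadjusted p under 0.05, Col14a1 (-0.52) and Dcn (-0.82), beside 12.8%. DESeq2 called 0 and 2.05% of all genes there, and voom 10 and 24.8%.

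The silicon difference itself was compared between mice with and without NR. EdgeR called 0 of 43 and 0% of all genes. At an unadjusted p under 0.05 were 9 (20.9%), beside 9.95%, 8 of them above 0: Timp3 (1.41, SE 0.42, adjusted p = 0.113), Col13a1 (1.94, SE 0.59, adjusted p = 0.126), Mfap2, Mfap4, Postn, Pdgfrb, Sparc and Bgn. Mmp14 was at -0.51. DESeq2 called 2, Col13a1 and Timp3, and 1.9% of all genes, and voom called 0 and 0%. Without the muscle-rich libraries edgeR called 11 of 43, all above 0, beside 7.79% of all genes, with silicon 1 and the lymphoid-rich silicon 3 as the only silicon mice left without NR. All of these comparisons share mice, so their estimates are not independent.

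Between females and males edgeR called 0 of 43, beside 0.0589% of all genes. At an unadjusted p under 0.05 were 4 (9.3%), all higher in females, beside 3.15% in either direction: Col14a1 (0.49, SE 0.13, adjusted p = 0.748), Mmp2 (0.40), Fbln1 (0.56) and Mfap4 (0.60). DESeq2 called 0 of 43 and 0.0558% of all genes, and voom 0 and 0.0825%. Above 0 were 35 of 43. With RLE factors the median log2 fold change was 0.15 over the 43 and -0.01 over all genes. Without gamma 5 edgeR called 1, Col14a1, a collagen that binds fibril surfaces, with 11 in the whole table.

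Of 65 further genes of matrix synthesis, assembly and turnover, all 65 were tested. After GCR 10 were called against mock (15.4%, beside 16.6% of all genes). Higher were the aggrecanase Adamts5 (log2 fold change 0.89, SE 0.22) and the matricellular gene Thbs1 (1.45, SE 0.37). Lower were 8, among them Pdgfd (-1.54), a PDGF ligand, Ltbp4 (-0.82), which binds latent TGF-beta, Aspn (-1.10), Loxl3 (-0.93), Pdgfc (-2.44) and Thbs2 (-2.11). Against silicon 13 were called (20%, beside 35.3%), 8 higher and 5 lower, with Plod2, a lysyl hydroxylase of collagen, at 1.05, Adamts1 at 1.25, Col27a1 at 1.08, Thbs2 at -2.97, Pdgfc at -3.10, Aspn at -1.29, Tgfbi at -0.70 and Sec23a at -1.08. Against gamma 3 were called (4.62%, beside 5.7%), all lower: Pdgfd (-1.95), Ltbp4 (-0.99) and Omd (-1.14). None of the 65 was called in the other 8 comparisons by edgeR. Since no gene of the whole table was called against mock, silicon or gamma without the high-Rn45s libraries, nor against mock without the muscle-rich ones, these calls are lost in those fits.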

How the data were processed

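Lung RNA of 37 mice was sequenced after SMART-seq v4 cDNA synthesis and Nextera XT library preparation per the labels' protocols. The deposited table holds raw whole-number counts by gene symbol. The submitters' processing notes name mm10, STAR 2.5.2, HTSeq 0.13.5, Trimmomatic 0.36, MultiQC 1.12 and FastQC 0.11.4, without settings, so overlapping genes may share counts. The 43 genes, their classes and the other lists were chosen with earlier results of these data known.

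CPM was computed here from the deposited counts. EdgeR 4.0.16 in R 4.3.3 (quasi-likelihood test, TMM, filterByExpr) was fitted to all 37 libraries with group and sex as terms. P-values were adjusted by Benjamini-Hochberg over 16977 genes, and genes under 0.05 were called. SEs are the fold change over the root of F. In simulated data for GCR against mock (16959 genes), 95% of changes of 2 on the log2 scale and 98% of 3 were recovered, with 6.76% false among the called. Each gene was drawn on its own, around the same mean in every library apart from the set changes. The simulated data thus held no muscle-rich, heart-rich, lymphoid-rich or high-Rn45s libraries. Their false share does not measure that of the real calls. Recovery of changes under 2, such as those of Loxl1, Tnxb, Dcn and Postn in GCR against mock, was not tested. Alternatives were RLE factors, DESeq2 1.42.0, voom (limma 3.58.1) with quality weights, no filter and no sex term. Further ones were the compared groups alone and each library left out. Omissions of whole kinds of library were added after the data were seen. Per-library values were recounted from the deposited table by a separate program. Coordinates and exon lengths are from GENCODE M21 (GRCm38). Named were all 43 genes, with full values for those called (up to 12 per comparison) and for Col1a1, Col3a1, Eln, Dcn, Fn1, Timp1, Lox and Pdgfra, and up to 8 called genes per comparison of the 65 others. No 2 libraries of a group were alike (lowest chi-square over its degrees of freedom 19.2). Nothing states separate housing or extraction; p-values measure the spread between these mice. RefSeq promoter entries matched 28 of the 43 genes.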

Additional observations from a re-analysis of the deposited data

Results flagged for a closer look

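In 11 of the 258 sets of values of 1 gene in 1 group, a single mouse stood far from the others, where about 1 in 20 sets would by chance. Highest were Tnc in mock replicate 5 (20.1 CPM, next 11.5), Loxl1 in mock replicate 7 (56.5, next 41.0), Col15a1 in silicon replicate 4 (17.8, next 10.8), Fbn1 in GCR replicate 6 (95.8, next 59.3) and Fn1 in gamma replicate 3 (140.2, next 58.4). Eln was highest in 1 mouse of 3 groups: mock + NR replicate 1 (163 CPM, next 94.6), silicon + NR replicate 2 (236, next 82.3) and gamma replicate 2 (191, next 133). Lowest were Efemp1 in silicon replicate 3 (49.4 CPM, next 106), Col12a1 in GCR replicate 2 (5.45, next 14.6) and Timp1 in gamma replicate 5 (5.89, next 11.3). Silicon replicate 3 is lymphoid-rich, gamma replicate 3 heart-rich, and GCR replicates 2 and 6 are high in Rn45s; whether this bears on these values was not tested.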

How the results depend on the processing

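No paired analysis was possible because the replicate numbers follow accession order and pair no mice. The log2 fold changes and counts below are from the fits named, and where no cause is given the cause was not tested. DESeq2 called 5 of the 43 genes for silicon against mock, 1 for gamma against mock, 6 for mock + NR against mock, 2 for the interaction and 3 for gamma against silicon. In the same order it called 2.49%, 1.46%, 3.8%, 1.9% and 6.39% of all genes. Voom called 2 for GCR against mock, 3 for gamma against mock, 5 for mock + NR against mock, 10 for silicon + NR against silicon and 19 for gamma against silicon. Its shares of all genes were, in that order, 8.92%, 1.4%, 5.85%, 24.8% and 30.8%. With the compared groups alone, 3 were called for GCR against mock, 0 for GCR against gamma and 0 for gamma against silicon. The whole table had 909, 0 and 169 genes called in these fits. Without the muscle-rich libraries the counts were 7 (silicon against mock), 0 (GCR against mock), 6 (mock + NR against mock), 11 (interaction), 0 (GCR against gamma) and 4 (gamma against silicon), beside 725, 0, 425, 1335, 0 and 290 of 17142 genes. Without the high-Rn45s libraries too they were 10, 0, 10, 12, 0 and 6, beside 1120, 0, 874, 1691, 0 and 781 of 17052 genes. Without the high-Rn45s libraries alone 0 were called for GCR against mock, silicon or gamma, beside 0 genes of the whole table in each. Without the heart-rich libraries 0 were called for GCR or silicon against gamma, beside 4 and 5 genes of the whole table. Without the lymphoid-rich ones 0 were called for gamma against silicon, beside 0 genes of the whole table.

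Signs turned in uncalled genes. For silicon against mock, Col1a1 was 0.011 with no sex term, Eln 0.15 by voom, Col1a1 0.16, Eln 0.077 and Fn1 0.084 without lymphoid-rich libraries, and Col3a1 -0.54 and Dcn -0.051 without muscle-rich ones (Col3a1 -0.50 also without high-Rn45s ones). For GCR against mock, Lox was -0.27 and Pdgfra -0.46 without muscle-rich libraries, and Col1a1 0.085 and Pdgfra -0.33 also without high-Rn45s ones. For gamma against mock, voom gave Col1a1 -0.00615, Dcn -0.25 and Pdgfra 0.14. Without heart-rich libraries Col1a1 was -0.28, Col3a1 -0.25 and Dcn -0.58. Without muscle-rich ones Lox was -0.33 and Timp1 -0.093 (-0.32 and -0.077 also without high-Rn45s ones). In the same 2 settings, Col14a1 was 0.062 and 0.10 for silicon + NR against silicon, and Col3a1 0.30 and 0.46 and Tnxb 0.65 and 0.83 for GCR against silicon. Without heart-rich libraries Fbln2 was 0.055 and Lum 0.0085 for GCR against gamma and Fbln1 -0.43 for gamma against silicon (-0.13 by voom).

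Leaving out 1 mouse at a time gave 0 to 5 calls for silicon against mock (5 without mock 6, 2 without mock 3), 1 to 6 for GCR against mock, 0 to 1 for gamma against mock, 0 to 3 for mock + NR against mock, 6 to 12 for GCR against silicon, 0 to 8 for GCR against gamma, 0 to 3 for gamma against silicon and 0 to 1 for females against males. In the same order, 0 to 307, 501 to 4087, 1 to 18, 0 to 265, 4694 to 6811, 0 to 2618, 1 to 378 and 10 to 11 genes of the whole table were called. Log2 fold changes then ran from -0.21 to 0.038 (Col1a1), -0.24 to 0.031 (Eln) and -0.29 to 0.029 (Fn1) for silicon against mock, from -0.32 to 0.18 (Lox) and -0.20 to 0.23 (Pdgfra) for GCR against mock, and from -0.30 to 0.24 (Col1a1), -0.27 to 0.45 (Col3a1), -0.052 to 0.15 (Lox) and -0.29 to 0.00337 (Pdgfra) for gamma against mock.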
